A study of Mus musculus with 48 samples.

Results

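The RNAs described here are Malat1 and Neat1, 2 long noncoding RNAs that stay in the nucleus, and Gas5, Snhg1, Snhg5 and Snhg12, 4 host transcripts of small nucleolar RNAs (snoRNAs). They are 6 of 27281 genes in the deposited RNA-Seq table and were taken by name across all 16 conditions. The table gives the symbols of 5 of them, and Neat1, which has no symbol there, was found by its Ensembl identifier. The 6 RNAs were chosen with measured values of these same conditions known, so their own levels and differences are given as a description, without a test. The tests reported below were run on other genes.

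RNA was measured by poly(A)-selected, directional RNA-Seq with single-end reads in conditionally immortalized STHdh cells, lines made from embryonic mouse striatum that the labels give as C57BL/6. STHdhQ111 cells carry a huntingtin gene with an expanded polyglutamine repeat, STHdhQ7 cells carry the wild-type repeat, and each genotype is represented by a single cell line. Every group was kept for 24 hours in serum-free medium, with 3 samples per group. The groups were STHdhQ7 cells with vehicle, STHdhQ111 cells with vehicle, and STHdhQ111 cells with each of 14 compounds, which had been selected for protecting them from serum withdrawal. Diacylglycerol kinase inhibitor II (DKI), meclizine, selisistat, loxapine and cyproheptadine were given at 10 µM, pizotifen at 5 µM and cysteamine at 250 µM. Sodium butyrate was given at 1 mM, 4-deoxypyridoxine (DOP) at 4 mM, fingolimod phosphate at 250 nM, trichostatin A at 10 nM, nortriptyline at 1 nM, and nicotinamide and haloperidol at 0.5 nM. The vehicle was dimethyl sulfoxide, whereas per the methods a compound was dissolved either in dimethyl sulfoxide or in water. Samples were collected on 3 days at 3 times of day. Vehicle samples of both lines and selisistat samples shared their day and time slots, as did 2 of the 3 cyproheptadine and DKI samples, whose replicate 1 was collected on the third day, so that neither has a sample of the first day. The other compounds were collected on the same days at other times.

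Small nucleolar RNAs guide the chemical modification of ribosomal RNA, and most of them are cut out of introns during splicing of a host transcript. Many hosts encode ribosomal proteins or factors that build ribosomes, but others, such as Gas5 and the Snhg genes, leave a spliced RNA with no conserved long reading frame. Ribosomes nevertheless read short frames near the 5′ end of these spliced RNAs, stop far upstream of the last exon junctions, and so mark the RNA for nonsense-mediated decay. Gas5 and Snhg1 are known to accumulate when translation or this decay is slowed. Several of these hosts begin with a run of pyrimidines, the 5′ terminal oligopyrimidine (5′TOP) motif by which growth signals through mTOR regulate the translation of ribosomal protein mRNAs. Malat1 lies in nuclear speckles, which store splicing factors, and Neat1 is the scaffold of paraspeckles. Neither is exported to ribosomes to any large degree.

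All positions below are on GRCm38 in GENCODE annotation. Malat1 (ENSMUSG00000092341) lies at chr19:5795690-5802672 on the minus strand and Neat1 (ENSMUSG00000092274) at chr19:5824708-5845478 on the minus strand. Gas5 (ENSMUSG00000053332) lies at chr1:161034422-161038539 on the plus strand, Snhg1 (ENSMUSG00000108414) at chr19:8723475-8726443 on the plus strand, Snhg5 (ENSMUSG00000097195) at chr9:88521050-88522929 on the minus strand, and Snhg12 (ENSMUSG00000086290) at chr4:132308623-132311024 on the plus strand. The annotation places 9 distinct genes of snoRNA type within Gas5, 8 within Snhg1, 2 within Snhg5 (Snord50a and Snord50b) and 4 within Snhg12 (Snora16a, Snora44, Snora61 and Snord99), each inside an intron of the host transcript with the most exons. None lies within Malat1 or Neat1. The snoRNAs themselves carry no poly(A) tail and were not measured here. Gas5 overlaps the protein-coding gene Zbtb37 on the other strand, Malat1 overlaps the annotated Gm37376 on the other strand and Gm27694 on its own, and Neat1 contains 3 annotated small RNAs on its own strand. Libraries were prepared with a directional kit, but whether the counting used strand is not given in the sources used here, so reads of these overlapping genes may be shared.

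The reading frame that starts at the first ATG of each host transcript with the most exons is shown because it is the stretch that ribosomes meet first, as read from the GRCm38 sequence along the GENCODE exons. Capitals mark the start and stop codons. The frame holds 23 codons in a Gas5 transcript of 12 exons and 502 bases, 40 codons in an Snhg1 transcript of 10 exons and 605 bases, 36 codons in an Snhg5 transcript of 6 exons and 781 bases, and 54 codons in an Snhg12 transcript of 5 exons and 606 bases. Over all annotated transcripts the median first frame holds 23 codons in Gas5, 39 in Snhg1 and 54 in Snhg12. In Snhg5 it holds 4 (range 3 to 36), so the Snhg5 frame shown is the longest of its transcripts and not typical of them.
Gas5: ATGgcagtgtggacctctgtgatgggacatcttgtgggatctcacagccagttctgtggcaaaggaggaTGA
Snhg1: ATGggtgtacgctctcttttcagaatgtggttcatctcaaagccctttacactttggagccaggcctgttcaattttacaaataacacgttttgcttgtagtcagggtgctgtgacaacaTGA
Snhg5: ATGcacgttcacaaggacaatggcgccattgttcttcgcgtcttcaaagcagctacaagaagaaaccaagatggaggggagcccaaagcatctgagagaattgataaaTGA
Snhg12: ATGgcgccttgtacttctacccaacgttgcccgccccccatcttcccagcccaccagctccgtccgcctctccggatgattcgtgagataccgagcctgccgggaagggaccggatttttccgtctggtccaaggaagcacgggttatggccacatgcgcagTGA
After the stop codon, 7 exon junctions of the Gas5 transcript, 5 of Snhg1, 2 of Snhg5 and 3 of Snhg12 lie more than 50 bases downstream, the arrangement that nonsense-mediated decay recognises. Such a junction follows the first reading frame in 24 of 25 annotated Gas5 transcripts, 15 of 18 of Snhg1, 5 of 6 of Snhg5 and 9 of 10 of Snhg12. It is also annotated in 3 of 4 Malat1 and 2 of 4 Neat1 transcripts, all of them spliced models of 485 to 3004 bases. The longest transcripts of Malat1 (6983 bases) and Neat1 (20771 bases) have 1 exon and thus no junction. A count over annotated transcripts therefore does not separate the hosts from the nuclear RNAs, whereas the longest transcripts of the nuclear RNAs lack this arrangement.

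The 30 bases from 10 before to 20 after the RefSeq start site (GRCm38) are shown next because they hold the place of a 5′TOP motif. RefSeq entries were matched by symbol for 5 of the 6 RNAs, all but Neat1, and Gas5 has a pair of starts. Capitals mark the longest unbroken run of C and T that begins in the window, on the transcribed strand only.
Gas5, upstream start: gcgggCCCgcgagctcgacagcccggagcc
Gas5, downstream start: ccatctcagCCTTTCggagctgtgcggcat
Snhg1: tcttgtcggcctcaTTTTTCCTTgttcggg
Snhg5: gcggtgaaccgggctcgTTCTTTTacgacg
Snhg12: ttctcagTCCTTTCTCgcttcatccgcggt
Malat1: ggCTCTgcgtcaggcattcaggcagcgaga
These windows lie at chr1:161034591-161034620, chr1:161035156-161035185, chr19:8723477-8723506, chr9:88522878-88522907, chr4:132308668-132308697 and chr19:5802653-5802682, in that order. The run is 9 bases long in Snhg1 and in Snhg12, and a run at least as long is found in 7.11% of the same windows of 32851 RefSeq promoters. It is 7 bases in Snhg5 (17.9% of promoters), 6 bases at the downstream Gas5 start (28.7%), 3 bases at the upstream one (88.3%) and 4 bases in Malat1 (68.6%), where 4 is also the median over all promoters. Counted from the start site, the run begins at base 4 in Snhg1 and 7 in Snhg5, downstream of the start. It begins at -3 in Snhg12, -1 at the downstream and -5 at the upstream Gas5 start, and -8 in Malat1. Length alone therefore does not place a run at the start. A run of these letters is a description of the window and not a shown 5′TOP motif.

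Values are the authors' normalized abundances on a log2 scale, which behave as a regularized logarithm and are not divided by gene length. Levels are therefore compared between conditions and not between genes, and the folds of rarely read genes are understated. Sequencing depth is unknown, as read counts are not in the table. On the linear scale the largest sample sum was 1.11 times the smallest. A difference below is the fitted log2 difference from the STHdhQ111 vehicle control with its standard error (SE), from a model with a term for the condition and one for the collection day. All 15 comparisons share the same 3 vehicle samples. Fewer cells of a kind and less RNA per cell cannot be told apart in such bulk samples. Of the labelled cell type's markers, Vim was at 15.42 in STHdhQ111 vehicle samples, but Nes (4.96) and Sox2 (4.81) were low there and higher in STHdhQ7 vehicle samples (10.95 and 8.91). A mean of at least 6 over all samples was reached by 1 of 6 neural progenitor markers, 2 of 8 striatal (Foxp1 at 9.99 and Ebf1 at 8.27 in STHdhQ111 vehicle samples), 4 of 5 mesenchymal (Col1a1, Col1a2, Pdgfra and Pdgfrb at 9.04 to 14.63, but Thy1 at -0.20), 1 of 6 mature neuron (Map2 at 8.40, but Rbfox3 at -2.13), 1 of 3 astrocyte (Slc1a3 at 7.21, but Gfap at -0.95), 0 of 2 oligodendrocyte and 1 of 4 microglia markers (Ptprc at 10.59, but Aif1 at -2.18 and Cx3cr1 at -1.81). The part of these markers in any result was not tested.

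**Figure D1:**
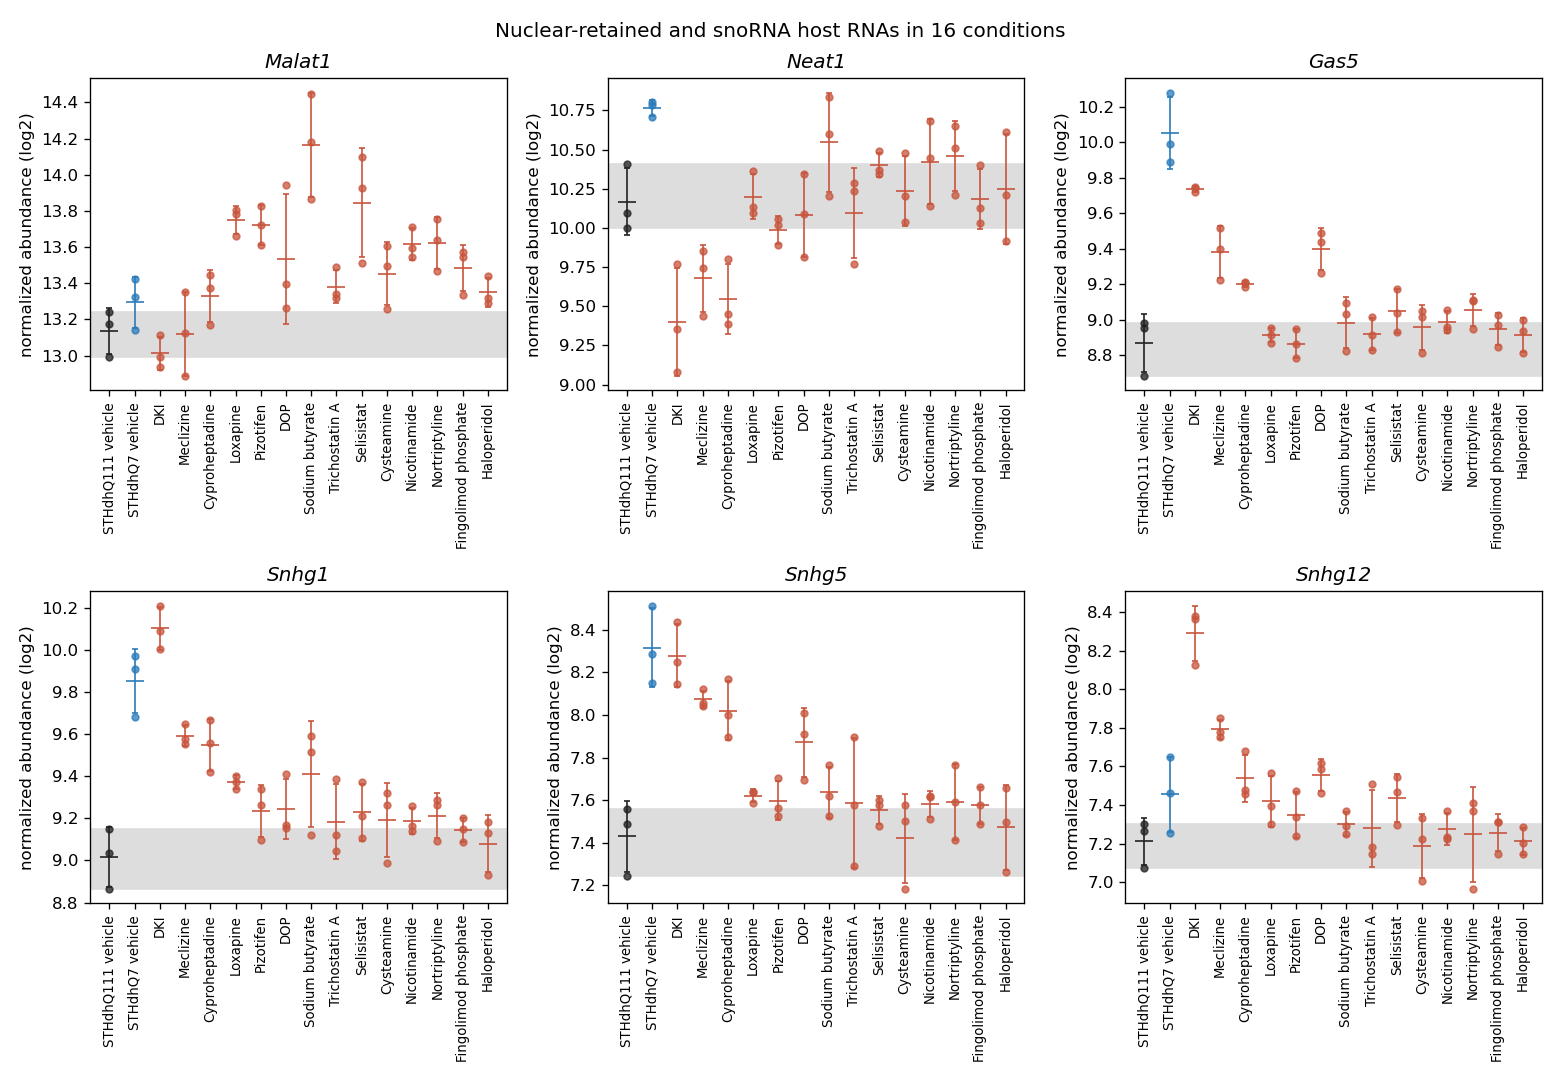
Normalized abundance (log2) of each RNA in the 16 conditions. Points are the 3 samples, the dash and bar are the mean ± SD, and the grey band spans the 3 STHdhQ111 vehicle samples. The 4 snoRNA hosts stand above the band with DKI, meclizine, cyproheptadine and DOP, whereas Malat1 is highest with sodium butyrate and Neat1 is lowest with DKI.

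Gas5, growth arrest-specific transcript 5, is the best known host that decays with translation. In falling order, its mean level (SD, n = 3) was 10.05 ± 0.20 in the STHdhQ7 vehicle control, 9.74 ± 0.02 in DKI, 9.40 ± 0.12 in DOP, 9.38 ± 0.15 in meclizine, 9.20 ± 0.02 in cyproheptadine and 9.05 ± 0.09 in nortriptyline. This group of 6 held the wild-type line and 5 compounds, and 5 of the 6, all but nortriptyline, had every sample above every STHdhQ111 vehicle sample. So did 16.9% (DOP) to 27.7% (STHdhQ7) of all genes tested in these 5 conditions. The means went on with 9.05 ± 0.12 in selisistat, 8.99 ± 0.06 in nicotinamide, 8.98 ± 0.14 in sodium butyrate, 8.96 ± 0.13 in cysteamine and 8.95 ± 0.09 in fingolimod phosphate. The lowest were 8.92 ± 0.09 in trichostatin A, 8.91 ± 0.10 in haloperidol, 8.91 ± 0.04 in loxapine, 8.87 ± 0.16 in the STHdhQ111 vehicle control and 8.86 ± 0.08 in pizotifen. Among the 15 pairs of neighbours in this order, the samples did not overlap in 4, namely between STHdhQ7 vehicle and DKI, DKI and DOP, meclizine and cyproheptadine, and cyproheptadine and nortriptyline. The other pairs, including DOP and meclizine, overlapped.

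Snhg1, also called the U22 host gene, carries box C/D snoRNAs. Its mean level (SD, n = 3) was 10.10 ± 0.10 in DKI, 9.85 ± 0.15 in the STHdhQ7 vehicle control, 9.59 ± 0.05 in meclizine, 9.55 ± 0.12 in cyproheptadine, 9.41 ± 0.25 in sodium butyrate and 9.37 ± 0.03 in loxapine. All of these except sodium butyrate had every sample above every STHdhQ111 vehicle sample, as did DOP. The share of all genes tested with such a separation in these conditions ran from 16.9% (DOP) to 27.7% (STHdhQ7). Then came 9.24 ± 0.14 in DOP, 9.23 ± 0.12 in pizotifen, 9.23 ± 0.13 in selisistat, 9.21 ± 0.11 in nortriptyline and 9.19 ± 0.18 in cysteamine. Last in order were 9.19 ± 0.06 in nicotinamide, 9.18 ± 0.18 in trichostatin A, 9.14 ± 0.06 in fingolimod phosphate, 9.08 ± 0.13 in haloperidol and 9.02 ± 0.14 in the STHdhQ111 vehicle control. The samples of neighbours were apart in 2 of 15 pairs, between DKI and STHdhQ7 vehicle and between STHdhQ7 vehicle and meclizine.

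For Snhg5, host of the U50 snoRNAs, the mean level (SD, n = 3) was 8.32 ± 0.18 in the STHdhQ7 vehicle control, 8.28 ± 0.15 in DKI, 8.07 ± 0.04 in meclizine, 8.02 ± 0.14 in cyproheptadine, 7.87 ± 0.16 in DOP and 7.64 ± 0.12 in sodium butyrate. The samples of the first 5 of these and of loxapine lay entirely above the STHdhQ111 vehicle samples. In these conditions that held for 16.9% (DOP) to 27.7% (STHdhQ7) of all genes tested. Next were 7.62 ± 0.03 in loxapine, 7.60 ± 0.09 in pizotifen, 7.59 ± 0.18 in nortriptyline, 7.59 ± 0.30 in trichostatin A and 7.58 ± 0.06 in nicotinamide. The lower end was 7.58 ± 0.09 in fingolimod phosphate, 7.55 ± 0.07 in selisistat, 7.47 ± 0.20 in haloperidol, 7.43 ± 0.17 in the STHdhQ111 vehicle control and 7.42 ± 0.21 in cysteamine. DKI and meclizine were the single pair of neighbours, of 15, whose samples did not overlap.

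Snhg12, a host of Snord99 and of box H/ACA snoRNAs that modify ribosomal RNA to pseudouridine, was at 8.29 ± 0.14 in DKI, 7.79 ± 0.05 in meclizine, 7.56 ± 0.08 in DOP, 7.54 ± 0.12 in cyproheptadine, 7.46 ± 0.20 in the STHdhQ7 vehicle control and 7.44 ± 0.13 in selisistat (mean ± SD, n = 3). STHdhQ7 vehicle samples overlapped the STHdhQ111 vehicle samples for Snhg12, and for none of the other 3 hosts. The following means were 7.42 ± 0.13 in loxapine, 7.35 ± 0.12 in pizotifen, 7.30 ± 0.06 in sodium butyrate, 7.28 ± 0.20 in trichostatin A and 7.28 ± 0.08 in nicotinamide. The order ended with 7.26 ± 0.10 in fingolimod phosphate, 7.25 ± 0.25 in nortriptyline, 7.21 ± 0.12 in the STHdhQ111 vehicle control, 7.21 ± 0.07 in haloperidol and 7.19 ± 0.17 in cysteamine. DKI was apart from meclizine and meclizine from DOP, and the remaining pairs of neighbours overlapped.

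Malat1, one of the most abundant RNAs in the nuclei of many cells, was at 14.17 ± 0.29 in sodium butyrate, 13.85 ± 0.30 in selisistat, 13.75 ± 0.08 in loxapine, 13.72 ± 0.11 in pizotifen, 13.62 ± 0.14 in nortriptyline and 13.62 ± 0.09 in nicotinamide (mean ± SD, n = 3). Then followed 13.53 ± 0.36 in DOP, 13.48 ± 0.13 in fingolimod phosphate, 13.45 ± 0.18 in cysteamine, 13.38 ± 0.09 in trichostatin A and 13.35 ± 0.08 in haloperidol. The lower end of the order was 13.33 ± 0.14 in cyproheptadine, 13.29 ± 0.14 in the STHdhQ7 vehicle control, 13.14 ± 0.13 in the STHdhQ111 vehicle control, 13.12 ± 0.23 in meclizine and 13.01 ± 0.09 in DKI. No pair of neighbours in this order was apart. In 11 of the 14 compound conditions every sample lay above every STHdhQ111 vehicle sample, all but meclizine, cyproheptadine and DKI. In these 11 the share of all genes tested with such a separation ran from 4.67% (haloperidol) to 24.5% (sodium butyrate). The lowest samples of DOP and cysteamine, both at 13.26, were close to the highest vehicle sample, at 13.24.

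Neat1, whose long isoform builds paraspeckles, had the widest range of condition means of the 6 RNAs, 1.36 on the log2 scale, against 0.90 for Snhg5, the narrowest. The level (mean ± SD, n = 3) was 10.76 ± 0.05 in the STHdhQ7 vehicle control, 10.54 ± 0.32 in sodium butyrate, 10.46 ± 0.23 in nortriptyline, 10.42 ± 0.27 in nicotinamide, 10.40 ± 0.08 in selisistat and 10.25 ± 0.35 in haloperidol. These overlapped among neighbours, and the STHdhQ7 vehicle samples were the only ones that lay entirely above the STHdhQ111 vehicle samples (27.7% of all genes tested). The middle of the order was 10.24 ± 0.22 in cysteamine, 10.20 ± 0.14 in loxapine, 10.18 ± 0.19 in fingolimod phosphate, 10.17 ± 0.22 in the STHdhQ111 vehicle control and 10.10 ± 0.29 in trichostatin A. The order closed with 10.08 ± 0.27 in DOP, 9.99 ± 0.09 in pizotifen, 9.68 ± 0.22 in meclizine, 9.55 ± 0.22 in cyproheptadine and 9.40 ± 0.35 in DKI. The gap between pizotifen and meclizine was the single one without overlap, and the 3 conditions below it had every sample below the STHdhQ111 vehicle samples. Of all genes tested, 19.2% did so with meclizine, 21.6% with cyproheptadine and 24.5% with DKI.

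DKI, an inhibitor of diacylglycerol kinases, was accompanied by the highest levels of Snhg1 and Snhg12 and the lowest of Malat1 and Neat1. Gas5 was at 9.75, 9.72 and 9.74 in the DKI samples and at 8.68, 8.98 and 8.95 in the vehicle samples, a difference of 0.86 (SE 0.09) or 1.82-fold. Snhg1 was at 10.21, 10.00 and 10.09 against 8.86, 9.15 and 9.03, 2.11-fold higher by a difference of 1.08 (SE 0.11). Snhg5 was at 8.44, 8.15 and 8.25 against 7.24, 7.56 and 7.49, a difference of 0.84 (SE 0.12). For all 4 hosts the groups were well apart. Snhg12 was at 8.36, 8.13 and 8.38 against 7.07, 7.26 and 7.30, a difference of 1.08 (SE 0.11), 2.12-fold. In the same samples Neat1 was at 9.08, 9.35 and 9.77 against 10.00, 10.41 and 10.09, 1.69-fold lower with a difference of -0.76 (SE 0.18). Malat1, at 12.99, 12.93 and 13.11 against 13.24, 13.18 and 12.99, overlapped the vehicle samples. Of all 15590 genes tested, 23.2% had every DKI sample above and 24.5% every DKI sample below every vehicle sample.

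Of 17 listed snoRNA host long noncoding RNAs (lncRNAs) other than these 4, 15 were in the table and 14 passed the filter on low values. With DKI 8 of 14 tested rose and 0 fell (limma, Benjamini-Hochberg adjusted p under 0.05), where 18.2% of all genes tested rose and 19.1% fell. Their median difference was 0.296, against -0.004 over all genes. Snhg15 was at 7.23, 6.72 and 7.17 against 6.01, 6.16 and 6.06, a difference of 0.96 (SE 0.11, adjusted p = 1.42e-08). Snhg17 rose by 0.90 (SE 0.09, adjusted p = 6.54e-10), Snhg6 by 0.82 (SE 0.12, adjusted p = 7.61e-07) and Zfas1, a host of box C/D snoRNAs at the 5′ end of Znfx1, by 0.79 (SE 0.12, adjusted p = 1.96e-06). The other risers were Snhg8, Epb41l4aos, Snhg4 and Dancr, with differences of 0.61, 0.58, 0.30 and 0.29. Of snoRNA hosts that also encode proteins, 13 of 19 rose and 1 fell. The mitochondrial chaperone Hspa9 rose by 1.13 (SE 0.08, adjusted p = 5.23e-13) and the nucleolar GTPase Gnl3 by 0.96 (SE 0.08, adjusted p = 1.54e-11). Of 16 mRNAs of 5′TOP type that do not encode ribosomal proteins, 12 rose and 0 fell, among them the nucleolar chaperone Npm1 with 0.80 (SE 0.11, adjusted p = 1.13e-07). Components of the decay machinery were mixed, with 4 of 17 nonsense-mediated decay and exon junction factors higher and 1 lower and a median difference of -0.007. Magohb, an exon junction protein, rose by 0.43 (adjusted p = 8.17e-05).

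Meclizine, an antihistamine given at the same 10 µM, was accompanied by higher levels of all 4 hosts, below those with DKI. Gas5 was at 9.40, 9.22 and 9.52, Snhg1 at 9.55, 9.58 and 9.65, Snhg5 at 8.12, 8.06 and 8.04 and Snhg12 at 7.85, 7.75 and 7.78. Each of these values lay above the 3 vehicle samples of their gene, with differences of 0.51 (SE 0.09), 0.58 (SE 0.11), 0.64 (SE 0.12) and 0.58 (SE 0.11), or 1.42-fold to 1.56-fold. Of all genes, 18.2% had samples entirely above and 19.2% entirely below the vehicle samples. Neat1 was at 9.44, 9.74 and 9.85, entirely below, with -0.49 (SE 0.18), and Malat1 was at 12.89, 13.35 and 13.12 and overlapped. Each host was lower with meclizine than with DKI in every sample, by 0.20 for Snhg5, 0.36 for Gas5 and 0.50 for Snhg1 and for Snhg12, while Malat1 and Neat1 overlapped between these compounds. Most meclizine and DKI samples came from different collection slots, and the part of the slot was not tested.

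With meclizine, 6 of 14 other snoRNA host lncRNAs rose and 0 fell, beside 11.3% and 11.5% of all genes (limma). Snhg17 rose most, at 8.44, 8.48 and 8.44 against 7.75, 7.94 and 7.70 with a difference of 0.66 (SE 0.09, adjusted p = 1.11e-06), and Zfas1, Snhg6, Epb41l4aos, Snhg15 and Snhg8 rose by 0.53, 0.52, 0.51, 0.49 and 0.37. Each of these 6 also rose with DKI. Protein-coding hosts rose in 12 of 19 and fell in 1, with Hspa9 at a difference of 0.89 (adjusted p = 5.24e-10). The 5′TOP mRNAs rose in 11 of 16 and fell in 0, among them Npm1 with 0.63 (adjusted p = 2.32e-05) and the poly(A)-binding protein Pabpc1 with 0.39 (adjusted p = 1.51e-05). Of the decay factors 2 of 17 rose and 0 fell, with a median difference of -0.013. They were Upf3a with 0.31 (adjusted p = 0.00378) and Smg9 with 0.20 (adjusted p = 0.0191), and neither was called without meclizine replicate 1, where their differences were 0.24 and 0.19. The Smg9 call was also lost without meclizine replicate 2 (0.194) or vehicle replicate 3 (0.185).

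Cyproheptadine, loxapine and pizotifen are tricyclic amines that bind histamine and serotonin or dopamine receptors, and the levels of these RNAs differed among them. With cyproheptadine at 10 µM, Gas5 was at 9.21, 9.21 and 9.18, Snhg1 at 9.67, 9.56 and 9.42, Snhg5 at 8.17, 8.0 and 7.89 and Snhg12 at 7.46, 7.68 and 7.48, every value above the vehicle samples (20.6% of all genes). The differences were 0.33 (SE 0.09), 0.53 (SE 0.11), 0.58 (SE 0.12) and 0.33 (SE 0.11). Neat1 was at 9.38, 9.80 and 9.45, 1.53-fold lower and entirely below the vehicle samples (21.6% of all genes), with -0.61 (SE 0.18). With DKI and meclizine, too, the hosts were higher and Neat1 lower. Loxapine at the same dose left Gas5 (8.91, 8.95 and 8.87) and Neat1 (10.13, 10.36 and 10.10) within the reach of the vehicle samples. Snhg1, Snhg5 and Snhg12 lay entirely above them (20% of all genes), by 0.35 (SE 0.11), 0.19 (SE 0.12) and 0.21 (SE 0.11). For Snhg12 the lowest loxapine sample (7.3019) and the highest vehicle sample (7.3012) were almost equal. For Snhg5 they were also close, at 7.5857 and 7.5608. Cyproheptadine samples were entirely above loxapine samples for Gas5, Snhg1 and Snhg5, by 0.29, 0.17 and 0.40, and entirely below them for Malat1 and Neat1, by -0.41 and -0.64. They overlapped for Snhg12. For Snhg1 the lowest cyproheptadine sample (9.42) and the highest loxapine sample (9.40) were close. Cyproheptadine and loxapine shared no collection slot. Nicotinamide and nortriptyline, from the slots of loxapine, also had Malat1 above the vehicle samples, by 0.48 and 0.49. The part of the slot in these differences was not tested. With pizotifen, whose dose of 5 µM was lower, all 4 hosts and Neat1 overlapped the vehicle samples, and the differences were -0.01 (SE 0.09), 0.22 (SE 0.11), 0.17 (SE 0.12), 0.14 (SE 0.11) and, for Neat1, -0.18 (SE 0.18).

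Tests on the other snoRNA host lncRNAs gave 3 of 14 higher and 0 lower with cyproheptadine, where 15.1% of all genes were higher and 15.8% lower (limma). They were Snhg17 with 0.47 (adjusted p = 0.000109), Snhg15 with 0.47 (adjusted p = 0.00139) and Snhg6 with 0.33 (adjusted p = 0.034). With loxapine 2 were higher and 0 lower, beside 8.94% and 10.1% of all genes, and these were Snhg15 with 0.44 (adjusted p = 0.0051) and Snhg17 with 0.29 (adjusted p = 0.0203). Leaving out loxapine replicate 2 or 3, or vehicle replicate 1 or 3, left 1 of these calls, that of Snhg15, and differences of 0.27, 0.27, 0.27 and 0.24 for Snhg17. With pizotifen Snhg17 alone was called, with 0.32 (adjusted p = 0.0122), beside 7.75% higher and 7.68% lower of all genes, and this call was lost without vehicle replicate 1 or 3 (differences of 0.30 and 0.27). Without pizotifen replicate 1, 2 were called. The share of genes with pizotifen samples entirely above the vehicle samples was 16.8%. Protein-coding hosts were higher in 10, 9 and 7 of 19 for cyproheptadine, loxapine and pizotifen, against 1, 2 and 0 lower. Gnl3 rose with all 3, by 0.67, 0.42 and 0.43. The 5′TOP mRNAs were higher in 4, 0 and 0 of 16 and lower in 1, 3 and 1. The translation initiation factor Eif4b fell with each, with -0.19 (adjusted p = 0.00798), -0.24 (adjusted p = 0.00231) and -0.21 (adjusted p = 0.0078), the last not called without pizotifen replicate 1, where it was -0.18. Decay factors were higher in 3, 1 and 0 of 17 and lower in 2, 1 and 1. Smg9 rose with cyproheptadine by 0.22 (adjusted p = 0.00708), not called without its replicate 3 (0.17), and with loxapine by 0.23 (adjusted p = 0.00861). Smg6, the endonuclease of nonsense-mediated decay, fell with each of the 3, with -0.26 (adjusted p = 4.68e-05), -0.24 (adjusted p = 0.000466) and -0.19 (adjusted p = 0.00397).

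**Figure D2:**
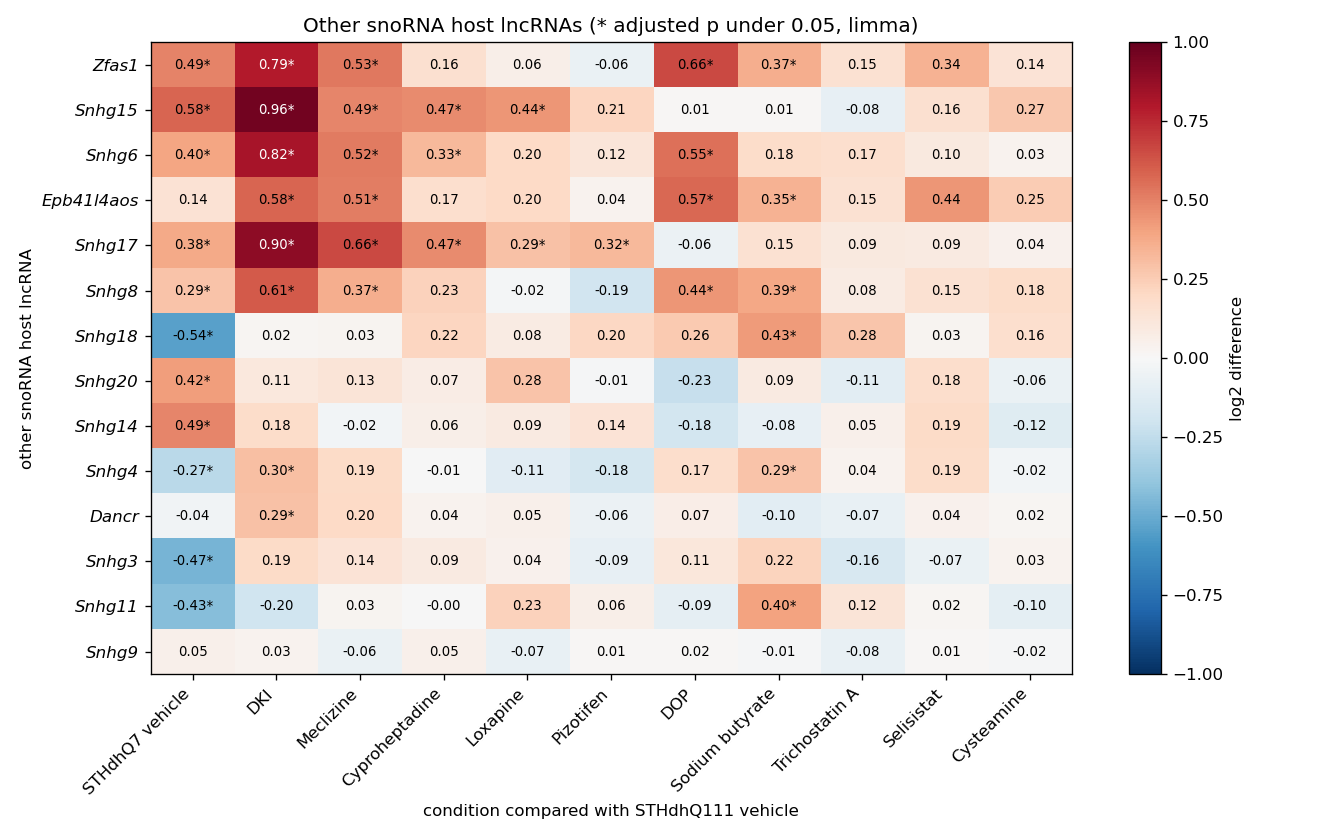
Log2 differences from the STHdhQ111 vehicle control for 14 other snoRNA host lncRNAs (rows) in the 11 comparisons that were tested (columns), coloured from lower (blue) to higher (red). An asterisk marks an adjusted p under 0.05 by limma. Of the 8 called with DKI, 6 were also called with meclizine, and Snhg15 and Snhg17 were called with loxapine but not with DOP.

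DOP, an antagonist of vitamin B6 given at 4 mM, was accompanied by higher levels of all 4 hosts, with Gas5 ahead of the others. Gas5 was at 9.44, 9.49 and 9.26 against 8.68, 8.98 and 8.95, a difference of 0.53 (SE 0.09), the largest of the 4. Snhg5 was at 7.91, 8.01 and 7.69, with 0.44 (SE 0.12), Snhg12 at 7.59, 7.62 and 7.46, with 0.34 (SE 0.11), and Snhg1 at 9.15, 9.41 and 9.17, with 0.23 (SE 0.11). All 4 lay entirely above the vehicle samples (16.9% of all genes), although the lowest Snhg1 sample cleared the highest vehicle sample by less than its SD of 0.14. Against nicotinamide and nortriptyline, compounds at nanomolar doses collected in the same slots as DOP, the differences were 0.38 for Gas5, 0.29 for Snhg5, 0.29 for Snhg12 and 0.04 for Snhg1. Other snoRNA host lncRNAs rose in 4 of 14 and fell in 0, beside 8.01% and 9.65% of all genes (limma). Zfas1 was at 9.38, 9.49 and 9.19 against 8.48, 8.71 and 8.89, with 0.66 (SE 0.12, adjusted p = 0.000207), and Epb41l4aos, Snhg6 and Snhg8 rose by 0.57, 0.55 and 0.44. Snhg17 and Snhg15, which rose with DKI, meclizine, cyproheptadine and loxapine, were at -0.06 and 0.01. Of the 5′TOP mRNAs 12 of 16 rose and 0 fell, with the elongation factor subunit Eef1b2 at 0.44 (adjusted p = 0.000317) and the nascent chain factor Naca at 0.43 (adjusted p = 3.43e-05). Of the protein-coding hosts, 2 of 19 rose and 3 fell. Decay factors fell in 6 of 17 and rose in 2. Among those that fell were Smg1, the kinase that phosphorylates Upf1, with -0.41 (adjusted p = 0.000715), and Smg5, which acts on phosphorylated Upf1, with -0.35 (adjusted p = 0.000388).

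Between the 2 genotypes, 3 of the 4 hosts and Neat1 were higher in the STHdhQ7 line. Gas5 was at 10.28, 9.99 and 9.89 in STHdhQ7 and 8.68, 8.98 and 8.95 in STHdhQ111 vehicle samples, 2.27-fold higher with 1.18 (SE 0.09), the largest difference of any of the 6 RNAs. Snhg1 was at 9.97, 9.91 and 9.68, with 0.84 (SE 0.11), and Snhg5 at 8.51, 8.29 and 8.15, with 0.89 (SE 0.12). Snhg12 was at 7.65, 7.46 and 7.25 against 7.07, 7.26 and 7.30, and these samples overlapped. Neat1 was at 10.79, 10.80 and 10.71 against 10.00, 10.41 and 10.09, with 0.60 (SE 0.18), entirely above, and Malat1 at 13.32, 13.14 and 13.42 overlapped. Over all genes, 27.7% lay entirely above, so such a separation between these lines was common. Other snoRNA host lncRNAs were higher in 7 of 14 and lower in 4, beside 26.1% and 23.6% of all genes (limma). Snhg15 was higher by 0.58 (adjusted p = 3.57e-05) and Zfas1 by 0.49 (adjusted p = 0.000757), whereas Snhg18 and Snhg3 were lower, with -0.54 (adjusted p = 1.09e-05) and -0.47 (adjusted p = 0.000431). Without STHdhQ7 replicate 2, 7 such RNAs were called, and 6 were called when the fit held only the samples of both vehicle groups. The 5′TOP mRNAs were higher in 1 of 16 and lower in 4, including Tpt1, with -0.36 (adjusted p = 6.28e-05). Decay factors were higher in 6 of 17 and lower in 2, with Smg9, a subunit of the Smg1 kinase complex, at 0.55 (adjusted p = 2.68e-09) and Upf2 at -0.30 (adjusted p = 8.99e-07). The genotype cannot be told apart from other differences between the lines, which included Nes and Sox2 above.

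Sodium butyrate and trichostatin A both inhibit histone deacetylases, at 1 mM and 10 nM, and Malat1 was highest with butyrate. Its values were 14.18, 13.87 and 14.45 with butyrate, 13.32, 13.34 and 13.49 with trichostatin A and 13.24, 13.18 and 12.99 with vehicle. The difference was 1.03 (SE 0.14) for butyrate, 2.04-fold, and 0.24 (SE 0.14) for trichostatin A. In both, all samples lay above the vehicle samples, as for 24.5% of all genes with butyrate and 14.2% with trichostatin A. The reference mattered, since vehicle samples were collected in other day and time slots than either compound. Against nicotinamide and nortriptyline from the slots of butyrate, the Malat1 difference was 0.55, and against haloperidol and fingolimod phosphate from the slots of trichostatin A it was -0.04. Neat1 with butyrate (10.83, 10.20 and 10.60) and with trichostatin A (10.29, 9.77 and 10.24) overlapped the vehicle samples, as did every host in both conditions. Snhg1 had the largest host difference with butyrate, 0.39 (SE 0.11), from samples at 9.59, 9.12 and 9.52, of which replicate 2 lay within the vehicle range.

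Butyrate raised 6 of 14 other snoRNA host lncRNAs and lowered 0, beside 17.5% and 15.6% of all genes (limma). Snhg18 rose by 0.43 (adjusted p = 0.000745), Snhg8 by 0.39 (adjusted p = 0.00771) and Zfas1 by 0.37 (adjusted p = 0.0173), and Epb41l4aos, Snhg4 and Snhg11 were also called. The count depended on single libraries, since 3 were called without butyrate replicate 1, 2 without replicate 3 and 1 without vehicle replicate 1. The 5′TOP mRNAs rose in 7 of 16 and fell in 0. Of the decay factors, 6 of 17 fell and 2 rose, with Nbas at -0.50 (adjusted p = 4.52e-07) and Smg1 at -0.44 (adjusted p = 9.22e-05). Nuclear speckle and splicing (SR) proteins, the neighbours of Malat1 in the nucleus, rose in 2 of 18 and fell in 1. Srsf9, an SR protein, rose by 0.25 (adjusted p = 0.00309). Trichostatin A gave 0 called snoRNA host lncRNAs in the higher and as many in the lower direction by limma, with 1 at an unadjusted p under 0.05, beside 5.28% higher and 5.55% lower of all genes. With it, 4 of 16 paraspeckle proteins fell and 0 rose, among them Rbm14 with -0.20 (adjusted p = 0.0161), which was not called without trichostatin A replicate 1 or vehicle replicate 1 (-0.20 and -0.20).

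Malat1 was the only one of the 6 RNAs whose samples lay above the vehicle samples in most compound conditions, and the size of the difference depended on the reference used. Selisistat, a sirtuin inhibitor collected in the same day and time slots as the vehicle, had Malat1 at 14.10, 13.93 and 13.51, with 0.71 (SE 0.14) (7.38% of all genes lay entirely above). Loxapine had it at 13.81, 13.66 and 13.78, with 0.61 (SE 0.14), and pizotifen at 13.83, 13.72 and 13.61, with 0.58 (SE 0.14). DOP had it at 13.26, 13.94 and 13.40, with 0.40 (SE 0.14). Cysteamine was at 13.50, 13.26 and 13.60, with 0.32 (SE 0.14) (13.4% of all genes). Compounds at nanomolar doses other than trichostatin A were also above the vehicle, with nicotinamide at 13.60, 13.71 and 13.54 (15.4% of all genes), nortriptyline at 13.76, 13.47 and 13.64 (12.7%), fingolimod phosphate at 13.54, 13.57 and 13.34 (9.47%) and haloperidol at 13.32, 13.29 and 13.44 (4.67%). Their differences were 0.48 (SE 0.14), 0.49 (SE 0.14), 0.35 (SE 0.14) and 0.21 (SE 0.14). Measured against these nanomolar compounds of the same slots instead of the vehicle, the Malat1 difference was 0.13 for loxapine, 0.30 for pizotifen, -0.09 for DOP, -0.17 for cysteamine and -0.30 for meclizine. It thus turned sign for DOP, cysteamine and trichostatin A. The part of the collection slot in these values was not tested. Malat1 lacks a genuine poly(A) tail, and the long Neat1 isoform does too, so both were measured in poly(A)-selected RNA only as far as this selection captured them.

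In the same 4 conditions of nanomolar compounds and with selisistat and cysteamine, the 4 hosts and Neat1 overlapped the vehicle samples without exception. Host differences ran from -0.03, for Snhg12 with cysteamine, to 0.22, for Snhg12 with selisistat, and Neat1 differences from 0.02 with fingolimod phosphate to 0.29 with nortriptyline. Selisistat samples had Gas5 at 9.04, 9.17 and 8.93 and Snhg1 at 9.37, 9.21 and 9.10, and cysteamine samples had them at 9.01, 8.81 and 9.05 and 9.26, 8.99 and 9.32. Of the other snoRNA host lncRNAs, limma called 0 with selisistat, with 3 at an unadjusted p under 0.05, where it called 0.564% of all genes higher and 0.18% lower. With cysteamine it called 0, with 2 at an unadjusted p under 0.05, and 2.04% of all genes were higher and 4.45% lower. Without selisistat replicate 3, 3 were called with selisistat. The decay factor Smg1 fell with cysteamine, with -0.36 (adjusted p = 0.00715), but was not called without cysteamine replicate 3 (-0.34) or vehicle replicate 1 or 2 (-0.30 and -0.30). Over all lists outside the snoRNA host lncRNAs, 1 gene was called with selisistat and 9 with trichostatin A and with cysteamine. With trichostatin A, 5.28% of all genes were higher and 5.55% lower.

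Where Neat1 was lowest, with DKI, 2 of 16 paraspeckle proteins rose and 4 fell, beside 18.2% and 19.1% of all genes. Pspc1, a core paraspeckle protein, was at 8.55, 8.37 and 8.52 against 8.86, 8.86 and 8.78, with -0.35 (SE 0.07, adjusted p = 5.12e-05), the chromatin remodeller Smarca4 fell, with -0.32 (adjusted p = 1.10e-05), and Taf15 rose by 0.60 (adjusted p = 1.37e-07). With meclizine 1 rose and 4 fell, beside 11.3% and 11.5%, Taf15 being at 0.48 (adjusted p = 1.56e-05) and Smarca4 at -0.24 (adjusted p = 0.000999). With cyproheptadine 1 rose and 2 fell, beside 15.1% and 15.8%, again with Smarca4 lower, at -0.23 (adjusted p = 0.00144). In the STHdhQ7 line, where Neat1 was highest, 1 was higher, Pspc1 with 0.30 (adjusted p = 0.000226), and 2 were lower, among them its partner Nono with -0.17 (adjusted p = 0.000538), beside 26.1% and 23.6% of all genes. With so few proteins, these counts are not read as a direction of the list. Median differences of the 16 proteins were -0.065 with DKI, -0.034 with meclizine, -0.023 with cyproheptadine and -0.025 in STHdhQ7, against -0.004, -0.003, -0.001 and 0.002 over all genes. Of 18 nuclear speckle and SR proteins, 3 were higher and 1 lower with DKI, and 5 and 4 in STHdhQ7, beside the same shares of all genes as above. With DOP they were 0 and 4, beside 8.01% and 9.65% of all genes, and with loxapine 3 and 1, beside 8.94% and 10.1%. Of 12 other long noncoding RNAs, 2 were higher and 2 lower with DKI, and 3 and 3 with butyrate, beside 17.5% and 15.6% of all genes. Kcnq1ot1, an imprinted nuclear RNA, rose with cyproheptadine, loxapine, pizotifen, butyrate, DOP and meclizine, by 0.60, 0.52, 0.60, 0.44, 0.39 and 0.30. It was not called without DOP replicate 2 (0.30) or vehicle replicate 3 (0.30) for DOP. For meclizine it was not called without meclizine replicate 2 or 3 (0.22 and 0.32) or vehicle replicate 2 or 3 (0.30 and 0.21). Norad, a cytoplasmic RNA that binds Pumilio proteins, fell with DOP, with -0.69 (adjusted p = 0.000715), and also with cysteamine (-0.56), pizotifen (-0.45), trichostatin A (-0.45), loxapine (-0.42) and butyrate (-0.37). The call held without any single library for DOP and was lost without vehicle replicate 1 in the other 5 conditions, where the difference was then -0.54, -0.43, -0.43, -0.40 and -0.35. Other single libraries also ended these calls, namely cysteamine replicate 3 (-0.48), replicates 1 and 2 of pizotifen (-0.41 and -0.46) and of loxapine (-0.37 and -0.42), every replicate of trichostatin A and of butyrate, and, outside cysteamine, vehicle replicate 3.

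Set side by side, the mean difference of the 4 hosts and that of Malat1 and Neat1 differed between conditions. With DKI the hosts were higher by 0.97 on average and the nuclear RNAs stood at -0.44, so that the hosts exceeded them by 1.40, and by at least 1.03 in each sample set against the vehicle sample of its day. The excess was 0.83 (within-day range 0.61 to 1.22) for meclizine and 0.65 (within-day range 0.43 to 0.70) for cyproheptadine. In these 3 conditions it was positive in every sample set against the vehicle sample of its day, which for DKI and cyproheptadine covers 2 of the 3 days. The mean of the nuclear RNAs there rested mainly on Neat1, at -0.76, -0.49 and -0.61 with DKI, meclizine and cyproheptadine. Malat1 overlapped the vehicle samples in all 3, at -0.12, -0.02 and 0.20. In the STHdhQ7 line both classes were higher, by 0.79 and 0.38, and the excess was 0.41 (within-day range 0.03 to 0.70). With DOP it was 0.23 (within-day range 0.00 to 0.64). Butyrate was the reverse case, with hosts at 0.20, nuclear RNAs at 0.70 and a host excess of -0.50 (within-day range -0.79 to -0.30). Nicotinamide and nortriptyline, collected in the slots of butyrate, had a host excess of -0.24 each against the same vehicle samples. The part of the slot in the butyrate value was not tested. Values were also negative on each day for selisistat, at -0.29 (within-day range -0.39 to -0.20), nicotinamide, at -0.24 (within-day range -0.32 to -0.16), nortriptyline, at -0.24 (within-day range -0.35 to -0.18), cysteamine, at -0.14 (within-day range -0.23 to -0.08), fingolimod phosphate, at -0.08 (within-day range -0.13 to -0.03), and pizotifen, at -0.07 (within-day range -0.10 to -0.02). For loxapine the value was -0.12 (within-day range -0.32 to 0.01), and it became 0.12 against the nanomolar compounds of the same slots. The values for cysteamine and pizotifen also turned positive against such compounds, and that for pizotifen reached 0.0087 with 1 sample left out. Since the 6 RNAs were chosen with such values known, these values are a description.

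**Figure D3:**
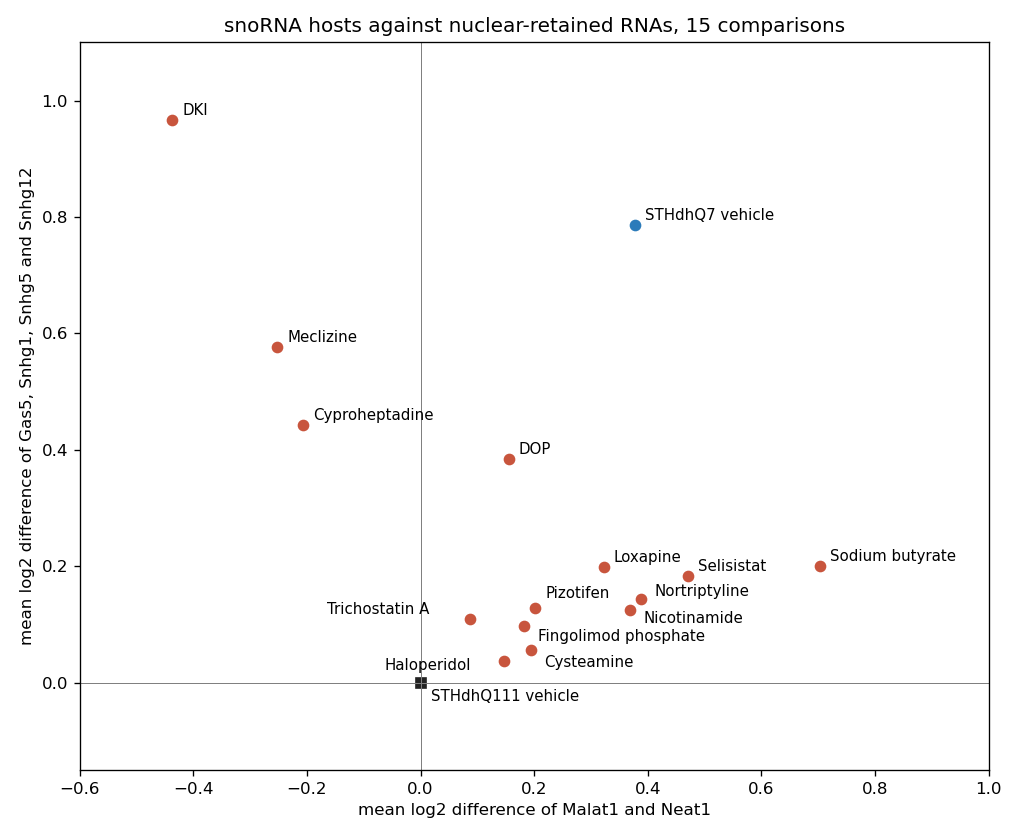
Mean log2 difference of the 4 snoRNA hosts (vertical axis) against that of Malat1 and Neat1 (horizontal axis) from the STHdhQ111 vehicle control, one point per condition (STHdhQ7 vehicle in blue, compounds in red, the reference as a black square). DKI, meclizine and cyproheptadine lie at the upper left, with the mean of the hosts above 0 and that of the nuclear RNAs below 0, STHdhQ7 vehicle at the upper right and sodium butyrate at the far right. With DKI, meclizine and cyproheptadine, Neat1 lay below the vehicle samples and Malat1 overlapped them.

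Snhg1 lies head to head with Slc3a2, which encodes the heavy chain shared by several amino acid transporters, and the annotated starts of the 2 genes are 106 bases apart on opposite strands. It is one of 6 neighbouring genes that were examined after values had been seen. With DKI it was at 13.53, 12.83 and 12.99 against 10.85, 10.82 and 10.84 with vehicle, a rise of 2.28 (SE 0.15, adjusted p = 5.28e-14) by limma. It also rose with meclizine by 1.16 (SE 0.15, adjusted p = 2.95e-07), with cyproheptadine by 0.94 (SE 0.15, adjusted p = 7.05e-06) and with loxapine by 0.52 (SE 0.15, adjusted p = 0.0116), the last of these not called without loxapine replicate 3, where it was 0.49. Pizotifen gave 0.59 (SE 0.15, adjusted p = 0.00545) and the STHdhQ7 line 1.02 (SE 0.15, adjusted p = 3.86e-07). The Slc3a2 difference was the larger of the pair in each of these conditions. With butyrate and DOP, where Snhg1 differed by 0.39 and 0.23, Slc3a2 differed by 0.07 (SE 0.15, adjusted p = 0.753) and -0.01 (SE 0.15, adjusted p = 0.987). Over the 16 condition means, Pearson's r between the 2 genes was 0.92, and 0.94 over the 15 STHdhQ111 conditions, as a description of libraries that share collection days and controls. Of the other neighbours, Frmd8, which starts 29796 bases from Neat1 on the same strand, had an r of 0.74 with Neat1 over 16 conditions and 0.79 over 15. It was lower with DKI, with -0.25 (SE 0.06, adjusted p = 0.00053), and meclizine, with -0.31 (SE 0.06, adjusted p = 0.000111), and higher in STHdhQ7, with 0.65 (SE 0.06, adjusted p = 3.55e-12). With cyproheptadine, where Neat1 differed by -0.61, Frmd8 was at -0.09 (SE 0.06, adjusted p = 0.271) and was not called. Over 16 and 15 conditions r was -0.39 and -0.49 for Zfp949 with Snhg5 and -0.24 and -0.27 for Rab42 with Snhg12. Zbtb37, whose start lies 427 bases from that of Gas5 on the other strand, had an r of 0.50 with Gas5 over 16 conditions and 0.064 over 15. It was called in a single one of the 11 tested comparisons, lower with cyproheptadine, with -0.24 (SE 0.09, adjusted p = 0.0456), and not there without vehicle replicate 1, where it was -0.17, or without vehicle replicate 2 or cyproheptadine replicate 1 or 3, at -0.22, -0.17 and -0.23.

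**Figure D4:**
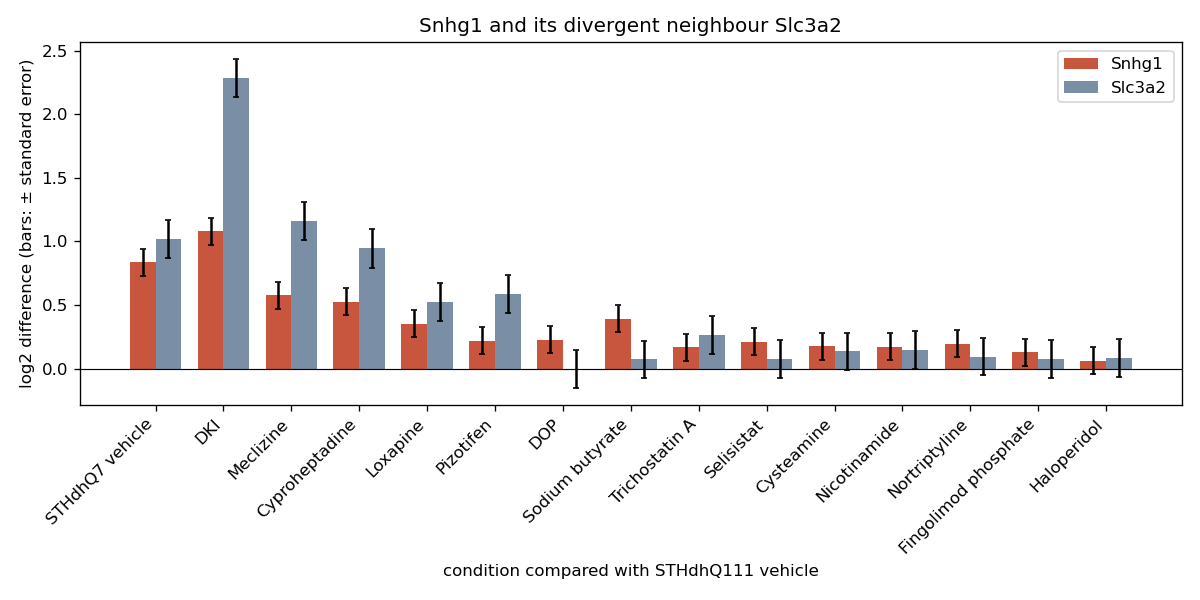
Log2 differences from the STHdhQ111 vehicle control of Snhg1 (red) and of Slc3a2 (grey), which starts 106 bases away on the other strand, in 15 conditions. Bars start at 0 and error bars are ± 1 standard error of the fit. Slc3a2 exceeds Snhg1 with DKI, meclizine, cyproheptadine and pizotifen, and Snhg1 exceeds Slc3a2 with DOP and sodium butyrate.

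Across the 16 condition means with the collection day removed, the hosts followed each other, with Pearson's r of 0.93 between Gas5 and Snhg5, 0.92 between Snhg1 and Snhg5, 0.85 between Gas5 and Snhg1 and 0.67 between Gas5 and Snhg12. Over the 15 STHdhQ111 conditions all 6 host pairs lay between 0.84 and 0.93. Malat1 and Neat1 had an r of 0.55, or 0.72 without STHdhQ7. Neat1 ran opposite to the hosts over the 15 conditions, with r from -0.83 for Snhg5 to -0.69 for Gas5, and this was weaker with STHdhQ7 included (-0.37 and -0.11). These coefficients describe means that share days and libraries, and they carry no p.

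Of 10220 other genes with a mean of at least 6, those whose 16 condition means were most like Gas5 were Rxrb (r = 0.96), Cep78 (0.93) and Lmo4 (0.92). For Snhg1 they were Nle1 (0.96), Nop56 (0.94), itself a snoRNA host, and Gch1 (0.94). For Snhg5 they were Cct2 (0.96), Lmo4 (0.95) and Ddx28 (0.94), and for Snhg12 Mib2 (0.98), Pdcd2 (0.97) and Imp3 (0.96). Malat1 had no neighbour as close, its best being Rad54b (0.85), Cpne1 (0.84) and Haus8 (0.83). Neat1 was most like Adamts10 (0.97), Haghl (0.95) and Fstl1 (0.94). Over the 15 STHdhQ111 conditions alone, a choice added after seeing the data, another host lncRNA, Snhg6, came first for Gas5 (0.95) and second for Snhg5 (0.95), and Npm1 second for Gas5 (0.94) and first for Snhg5 (0.95). There Neat1 was most like Col1a1 (0.97), and Malat1 like Srsf9 (0.88), a member of the splicing factor list above.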

How the data were processed

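RNA-Seq of 48 samples, 16 conditions with 3 samples each, was used as deposited. Per the methods and the submitters' processing notes, the authors trimmed reads with Trimmomatic 0.36, quantified genes with RSEM on GRCm38.p5 with GENCODE annotation, and normalized them with DESeq2. The deposited values are the authors' normalized abundances on a log2 scale, and the transformation behind them is not given in the sources used here. They behave as a regularized logarithm. Read counts were not in the table, so no interval for counting error was computed.

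Rows were named by Ensembl identifier in GENCODE, or else by the symbol in the table, which gave 27191 named rows of 27281, of which 15590 with a mean of at least 1 were tested. Where a symbol had several rows (Dancr), that with the highest mean was used. Log2 differences from the STHdhQ111 vehicle control were fitted with limma 3.58.1 in R 4.3.3 over all 48 samples, with condition and collection day as terms, an abundance trend and 30 residual degrees of freedom. P-values were adjusted over all genes tested (Benjamini-Hochberg) with a threshold of 0.05. The scripts were tested on simulated data. Figures and sequence tables were made in Python 3.11.15 with matplotlib 3.10.9, and samples are separate cultures only as far as the labels say, so p-values measure the spread between these samples.

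The members and gene lists were chosen with earlier results of these data known, and no test was made on the members. The lists were other snoRNA host lncRNAs, protein-coding snoRNA hosts, nonsense-mediated decay and exon junction factors, non-ribosomal 5′TOP mRNAs, paraspeckle proteins, nuclear speckle and SR proteins, other long noncoding RNAs and cell type markers. Named were, for each list and comparison, at most the 2 genes with the largest called rise and the 2 with the largest called fall whose samples agreed in direction, all called snoRNA host lncRNAs, and for each member the 3 genes of mean at least 6 with the most similar condition means. The 6 neighbouring genes were named after their values had been seen. One called gene and 1 neighbouring gene are not reported here.

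Replicate numbers are collection days in the labels, except for replicate 1 of cyproheptadine and of DKI. The number was checked as a pairing: residuals of samples from the same day correlated at -0.055 on average and those from other days at 0.028, and in 2 of 120 pairs of conditions all 3 numbers correlated above 0.1. Alternatives to the fit were other filters, leaving the day out, a block for the replicate number, adding the collection time, fitting the compared samples alone, rescaled values, no abundance trend, each sample left out in turn, and nanomolar compounds of the same collection slots as reference. A search limited to symbols in the table and one over the 15 STHdhQ111 conditions were added after seeing the data.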

Additional observations from a re-analysis of the deposited data

How the results depend on the processing

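Differences of the 6 RNAs moved by less than the replicate spread in every refit that kept the vehicle as reference (450 with all samples and 540 with 1 left out), and 47 of these changed sign, all where the difference was within 0.16 of 0. The reference itself mattered. Against nanomolar compounds of the same collection slots, Malat1 was at -0.30 for meclizine, 0.55 for butyrate, 0.13 for loxapine, -0.087 for DOP, -0.036 for trichostatin A, 0.30 for pizotifen and -0.17 for cysteamine, and Neat1 at 0.10 for butyrate, -0.24 for loxapine, -0.36 for DOP and -0.20 for cysteamine. Gas5 was then at -0.11, 0.38 and -0.063 and Snhg1 at 0.17, 0.044 and -0.0099 for loxapine, DOP and cysteamine, Snhg5 at 0.050 for butyrate and 0.034 for loxapine, and the host minus nuclear difference at 0.12 for loxapine, 0.024 for pizotifen and 0.11 for cysteamine, while 23 other differences of the 6 RNAs moved by less than the spread. Leaving out 1 sample, host minus nuclear ran from -0.32 to -0.16 for nicotinamide, -0.19 to -0.0018 for fingolimod phosphate and -0.14 to 0.0087 for pizotifen. It ran from 0.072 to 0.35 for DOP, -0.19 to -0.042 for loxapine, -0.17 to -0.020 for haloperidol, -0.20 to -0.056 for cysteamine, -0.31 to -0.16 for nortriptyline and -0.19 to 0.17 for trichostatin A, and in the other 6 conditions it moved by less than 1.5 times. The cause of these shifts was not tested.

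Called snoRNA host lncRNAs numbered 6 in STHdhQ7 with only the compared samples, where fewer samples estimate the spread, 1 for loxapine and 0 for pizotifen with symbols of the table only, 1 for selisistat with no day term, and 1 for trichostatin A with the stricter filter, no day term or symbols of the table only. Leaving out 1 sample gave 7 to 11 in STHdhQ7, 1 to 6 for butyrate, 1 to 2 for loxapine, 0 to 3 for selisistat, 0 to 1 for trichostatin A and 0 to 2 for pizotifen. The largest changes came without STHdhQ7 replicate 2 (7), vehicle replicate 1 (1, butyrate) and selisistat replicate 3 (3). With the replicate block in place of the collection day, the counts were 11 in STHdhQ7, 6 for meclizine, 6 for butyrate, 3 for cyproheptadine, 2 for loxapine, 4 for DOP, 8 for DKI, 1 for pizotifen and 0 for the other 3 tested compounds, and the block changed no other call.

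Called genes of the other lists numbered 39 in STHdhQ7, 36 with meclizine, 34 with butyrate, 28 with cyproheptadine, 24 with loxapine, 35 with DOP, 45 with DKI, 13 with pizotifen, 9 with trichostatin A, 9 with cysteamine and 1 with selisistat. Tested were 19 protein-coding hosts, 17 decay factors, 16 mRNAs of 5′TOP type, 16 paraspeckle proteins, 18 speckle and SR proteins and 12 other lncRNAs. Of all genes, 26.1% were higher and 23.6% lower in STHdhQ7, and 11.3% and 11.5% with meclizine. With butyrate they were 17.5% and 15.6%, and with cyproheptadine 15.1% and 15.8%. These shares were 8.94% and 10.1% with loxapine, 8.01% and 9.65% with DOP, 18.2% and 19.1% with DKI and 7.75% and 7.68% with pizotifen. With only the compared samples, the called genes of these other lists numbered 21 for butyrate, 15 for cyproheptadine, 15 for DOP, 20 for DKI, 1 for trichostatin A and 0 for selisistat. For selisistat the stricter filter gave 0 and no day term 2, and for trichostatin A no filter gave 3 and collection time as a further term 5. Leaving out 1 sample gave 23 to 33 for meclizine (lowest without its replicate 1), 13 to 22 for loxapine and 6 to 10 for pizotifen (both lowest without vehicle replicate 1), 0 to 5 for selisistat, 0 to 8 for trichostatin A and 0 to 14 for cysteamine. Of single named calls, those of Zfas1 and Nono in STHdhQ7, Eif4b and Smarca4 with cyproheptadine, Rbm14 with trichostatin A and Smg9 with meclizine were lost with only the compared samples, and that of Snhg11 with butyrate with no filter or collection time as a further term.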
